A study of Rattus norvegicus with 5 samples.

Results

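The enzymes of glycolysis, the pentose phosphate pathway, the pyruvate dehydrogenase complex and the citrate cycle were followed under mild calorie restriction (CR) in male Wistar rats, in RNA of their small intestine. The set was defined as 31 genes, chosen with earlier results of these data known. All probe sets of the array annotated to one of them were taken, whatever their values. Of the 31 genes, 29 had a gene probe set, which for *Gapdh* and *Pkm* carries a further gene name. On the whole array 10411 genes have a probe set with 1 gene name. *Dlat* and *Fh* had no annotated probe set and are not analysed here. The 29 genes were read by 39 gene probe sets, and *Gapdh* and *Hk1* by 6 array control probe sets besides, which makes 45 in all.

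Rats were purchased at 5 weeks of age and the experiment started at 6 weeks. A control group received all of the recorded daily intake of a purified powdered diet, and the other groups received 5, 10, 20 or 30% less of it, for 1 month. All groups, the control included, were fasted for 16 h before the intestine was taken. RNA of 5 rats per group was pooled, and 1 Affymetrix rat 230A array was run per pool, so that there are 5 arrays, no level has a replicate, and the spread between single rats cannot be seen. In whole tissue, fewer cells of a type and less RNA per cell cannot be told apart.

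Glycolysis splits glucose into pyruvate, which is either reduced to lactate in the cytosol or oxidized to acetyl-CoA by the pyruvate dehydrogenase complex of the mitochondrion. The citrate cycle oxidizes the acetyl group and supplies electrons to the respiratory chain, and the pentose phosphate pathway branches off early to make NADPH and ribose. Enterocytes are known to use glutamine as well as glucose as fuel, and to release part of the glucose they take up as lactate. A single array of whole small intestine sums these cells with crypt cells, muscle and immune cells.

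The values are MAS5 signals, a linear brightness per probe set, and as deposited they have the same trimmed mean (132) on each array. A signal depends on the probes as well as on the transcript, so the values are compared between arrays and not between genes. Correlations of log2 signals between the arrays ranged from 0.931 to 0.952. For beta-actin, the signal at the 3' end over that at the 5' end, which grows as RNA degrades, was 3.18 at 20% CR and 2.20 to 2.41 on the other arrays. The same ratio for *Gapdh* did not set that array apart, with 1.27 at 20% CR against 1.40 in the control pool and 1.32, 1.37 and 1.21 at 5, 10 and 30% CR. The summed signal of 8 measured epithelial markers (such as *Fabp1* and *Apoa1*) was 17117 at 20% CR, 10479 in the control pool and 12199 to 12700 on the others. Bright genes weigh most in such a sum, and the markers did not move together. *Cdx2* had 717 in the control pool and 693 at 20% CR, *Cdx1* 121 and 125, and *Anpep* 1005 and 1329. These 3 had a negative mean log2 ratio over the CR levels, and the other 5 a positive one. Enterocyte genes were bright on every array, such as *Fabp1*, a fatty acid binding protein, with 4065 to 6468, while the brush border markers *Vil1*, *Sis* and *Lct* are not analysed here, and no marker in the lists was at 0. Exocrine pancreas markers (6 measured, 1 of them kept) summed to 701 in the control pool and to 253 to 342 in the CR pools, and *Prss1*, the pancreatic trypsinogen, had 174 in the control pool and 2.4 to 71.2 in the CR pools. Summed smooth muscle markers (8 measured) were 11684 in the control pool, 12809 at 10% CR and 9428 to 11046 at the other levels. The other marker lists summed to 2435 to 2768 (crypt), 11833 to 14853 (goblet), 931 to 1223 (macrophage), 1172 to 1994 (blood) and 95.1 to 148 (adipose) over the 5 arrays.

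The signals of these enzymes differed little between the 5 pools. In 27 of the 29 genes the log2 ratio to the control array was within 0.5 at every CR level, against 73.7% of the 7933 probe sets that passed a filter on the mean signal (46.5) and 84.7% of the brightest 25% of all gene probe sets. The enzymes are bright: 28 of the 29 passed the filter and 27 lie in the brightest 25%. Over the members, the highest of the 5 signals was 1.27 times the lowest in the median, against 1.35 times over the kept probe sets and 1.28 times in the brightest 25%. The exceptions, *Hk1* and *Hk2*, had mean signals of 73.1 and 15.6. *Hk1* was at least 0.5 higher at 5, 10, 20 and 30% CR, where 5.62, 4.73, 3.95 and 7.51% of the kept probe sets were. *Hk2* was at least 0.5 lower at 20 and 30% CR, where 6.15 and 5.61% were, and no member was so at 5 and 10% CR, against 3.84 and 3.45%.

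The mean of the 4 CR pools was compared with the single control pool in limma, which takes the spread of the CR pools to hold for the control too. Any difference between the CR levels counts as spread in this comparison. The spread of each probe set is also drawn toward that of probe sets of like signal. An interval thus does not follow from a gene's own SD over the levels alone. In this test 0 members passed an adjusted p of 0.05, and 0.0% of all kept probe sets did in either direction (the smallest adjusted p of a member was 0.955). At an unadjusted p below 0.05, 1 member, *Hk1*, was found, where 4.76% of the kept probe sets were. A linear trend over the restriction percent gave 0 members at an adjusted p of 0.05 (0.0% of kept probe sets in either direction, smallest adjusted p of a member 0.998) and 0 at an unadjusted p below 0.05, against 3.09%. These fits have 3 residual degrees of freedom, and the 95% interval of a member's mean log2 ratio was ± 0.34 in the median, so that differences of that order could not be seen. Apart from *Hk1*, the mean log2 ratios of the kept members ran from −0.30 to 0.23, and their 95% intervals reached from −0.71 at the lowest to 0.64 at the highest bound.

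**Figure D1:**
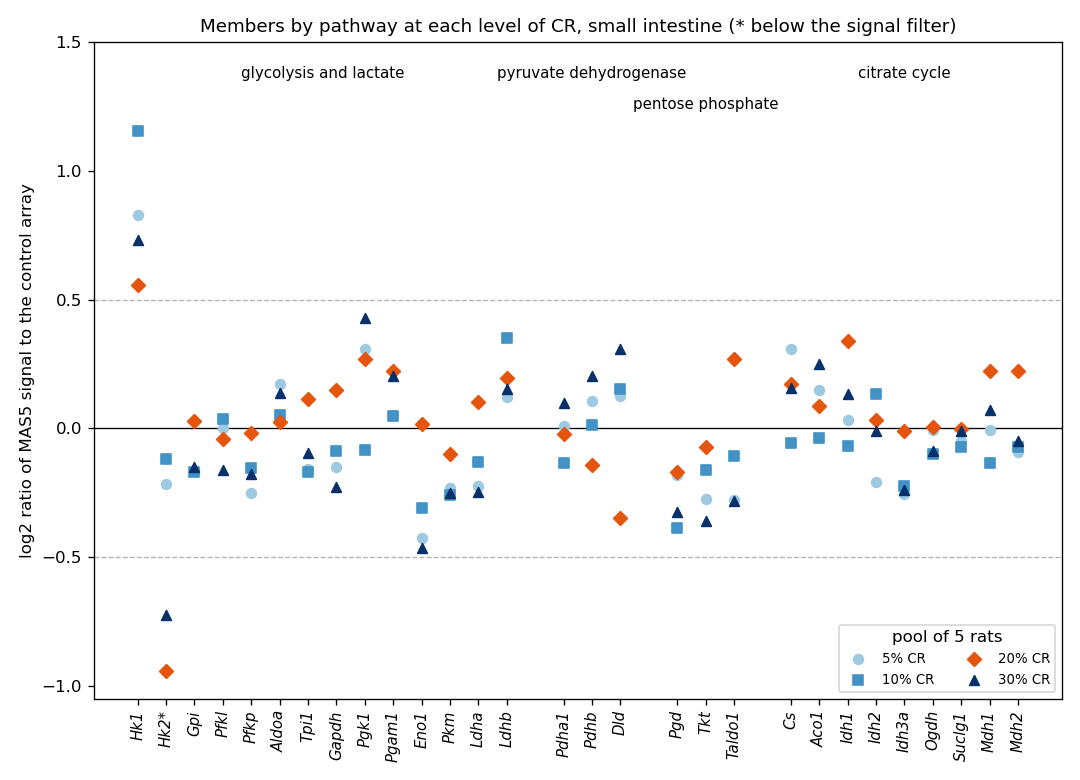
Log2 ratio of the MAS5 signal to the control array for the 29 measured genes, grouped by pathway, at 5, 10, 20 and 30% CR; every point stands for 1 array and thus 1 pool, and the dashed lines mark 0.5 in either direction. Only *Hk1* and *Hk2* (the latter below the signal filter) lie outside those lines at any level, and the 20% CR points lie above those of the other levels in many genes of glycolysis and the pentose phosphate pathway.

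At the entry of glycolysis, the hexokinases, which trap glucose in the cell as glucose 6-phosphate, went opposite ways on weak signals. *Hk1* had a signal of 44.9 in the control pool and 79.8, 100, 66.0 and 74.6 at 5, 10, 20 and 30% CR. The control was the lowest array, and all 4 CR pools lay above it, with the largest value at 10% CR. The mean log2 ratio was 0.82 (SD over the 4 levels 0.25, 95% interval 0.23 to 1.40), with an unadjusted p = 0.0109 and an adjusted p = 0.955 in limma. The control signal was below the value at which the filter lies (46.5), so that *Hk1* passed the filter only through its signals under CR, and a gene that passes in this way had to be higher there. With a constant of 13 added to all signals the mean log2 ratio was 0.67. The 3 hexokinase control probe sets of the array lay between 0.5 and 13.8 on all arrays, which is too weak to follow. *Hk1* is also expressed in cells other than enterocytes. Markers of lymphocytes, also on weak signals, were higher in the CR pools in the median of 5 measured genes (0.39 in the mean of the levels, summed signal 166 in the control pool and 158 to 259 in the CR pools), and their part in the result was not tested.

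*Hk2*, the hexokinase that insulin and growth signals raise in other tissues, had signals of 20.0 in the control pool and 17.2, 18.4, 10.4 and 12.1 at 5, 10, 20 and 30% CR. All of these lie below the filter, and no test was made. The CR arrays were below the control, most at 20% CR (log2 ratio −0.94) and 30% CR (−0.72).

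Phosphofructokinase, the committed step of glycolysis, is measured through its liver (*Pfkl*) and platelet (*Pfkp*) type subunits. *Pfkl* had signals of 180 in the control pool and 180, 185, 175 and 161 at 5, 10, 20 and 30% CR. The 30% CR pool was the only one to stand apart, and by no more than −0.16 (log2). *Pfkp* had 1063 in the control pool and 894, 955, 1050 and 941 in the CR pools. It was lower at all 4 levels (mean log2 ratio −0.15, SD 0.10, adjusted p = 0.988 in limma), but at 20% CR only by −0.02, which became 0.05 after median centring. Before this step, *Gpi*, which turns glucose 6-phosphate into fructose 6-phosphate, had 1599 in the control pool and 1424 to 1633 in the CR pools.

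After it, *Aldoa*, the aldolase of muscle and many other tissues, had 2853 in the control pool and 3219, 2954, 2900 and 3140 at 5, 10, 20 and 30% CR, above the control at each level by 0.02 to 0.17 (log2), though below it at 20% CR after quantile normalization (−0.15) and at 10% CR after median centring (−0.01). *Tpi1*, which interconverts the triose phosphates, had 2361 in the control pool and 2119, 2099, 2558 and 2208. The mean log2 ratios of both were small, 0.10 for *Aldoa* and −0.08 for *Tpi1*. *Tpi1* was lower in all pools but that of 20% CR (0.12), where it was −0.02 after quantile normalization.

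*Gapdh*, which makes the first NADH of glycolysis and is often used as a reference gene, is read by a probe set that also carries the name *Gapdhl10*. Its signals were 5352 in the control pool and 4827, 5033, 5942 and 4566 at 5, 10, 20 and 30% CR. The 20% CR array was the highest and the 30% CR array the lowest of the 5 (log2 ratios 0.15, or −0.09 after quantile normalization, and −0.23), and the mean log2 ratio was −0.08 (95% interval −0.44 to 0.28). The array control probe sets of *Gapdh*, which sit at its 3' end, middle and 5' end, were likewise highest at 20% CR, with 5323, 5044 and 4181 against 4518, 4252 and 3231 on the control array. At 30% CR they had 4271, 3423 and 3536, so that the 5' probe set was above the control array and the other two below it. For the *Gapdh* and *Gapdhl10* probe set the highest of the 5 signals was 1.30 times the lowest.

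*Pgk1* makes the first ATP of glycolysis. Its brightest probe set had 1629 in the control pool and 2015, 1539, 1965 and 2190 at 5, 10, 20 and 30% CR. The pools of 5, 20 and 30% CR were above the control and that of 10% CR was below it, and the slope over the restriction percent was the highest of the members (0.12 ± 0.06 log2 per 10% restriction, standard error, unadjusted p = 0.0807, adjusted p = 0.998 in limma). A second kept probe set gave the same signs, with log2 ratios of 0.15, −0.05, 0.42 and 0.30.

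*Pgam1*, the next enzyme, had 2021 in the control pool and 2097, 2090, 2358 and 2328 in the CR pools of 5, 10, 20 and 30%, above the control at all 4 levels (at 10% CR by 0.05 as deposited and −0.01 after median centring). *Eno1*, the enolase that follows it, had 3509 in the control pool and 2611, 2830, 3556 and 2540. It was lower in 3 of the 4 pools, by −0.43, −0.31 and −0.47 (log2) at 5, 10 and 30% CR, and level with the control at 20% CR (0.02, or −0.14 after quantile normalization). Among the kept members *Eno1* had the lowest mean log2 ratio (−0.30, SD over the levels 0.22, 95% interval −0.71 to 0.11, adjusted p = 0.988 in limma).

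*Pkm*, the pyruvate kinase of most tissues, shares its probe set with the pseudogene name *Pkm-ps20*, and had 1863 in the control pool and 1585, 1557, 1740 and 1564 at 5, 10, 20 and 30% CR. All 4 CR pools were lower than the control (mean log2 ratio −0.21, SD 0.08, adjusted p = 0.988 in limma). The lactate dehydrogenase subunits went apart: *Ldha*, the subunit that favours lactate formation, had 6156 in the control pool and 5269, 5616, 6601 and 5193. It was lower in 3 pools and at 20% CR higher as deposited (log2 ratio 0.10), but not after quantile normalization (−0.04). *Ldhb*, the heart type subunit, had 177 in the control pool and 192, 225, 203 and 197, and was above the control at all 4 levels (mean log2 ratio 0.21, 95% interval −0.17 to 0.58). The difference between the 2 subunits was not tested.

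In the pentose phosphate pathway all 3 measured enzymes had a lower mean in the CR pools. *Pgd*, the second NADPH-making step, had 810 in the control pool and 715, 619, 720 and 647 at 5, 10, 20 and 30% CR. All CR pools were below the control, most at 10% CR (log2 ratio −0.39). The mean log2 ratio was −0.27 (SD 0.11, 95% interval −0.59 to 0.05, unadjusted p = 0.0944 and adjusted p = 0.988 in limma), and the slope was the lowest of the members (−0.07 ± 0.06 per 10% restriction, adjusted p = 0.998). Another 3 probe sets carry the name *Pgd* together with *Cenps*, *Kif1b* and *Cort*, with signals of 22.6 to 71.8. They do not follow *Pgd* and cannot be given to a single gene.

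*Tkt*, the transketolase of the non-oxidative branch, had 1327 in the control pool and 1098, 1186, 1263 and 1035 at 5, 10, 20 and 30% CR, again lower in every CR pool (mean log2 ratio −0.22, 95% interval −0.54 to 0.11). A second probe set of *Tkt* had signals of 1.5 to 3.1 and was too weak to follow. *Taldo1*, the transaldolase of the same branch, had 1625 in the control pool and 1340, 1507, 1958 and 1337. It was below the control at 5, 10 and 30% CR (log2 ratios −0.28, −0.11 and −0.28) and above it at 20% CR (0.27). The median of the 3 genes was −0.27, −0.16, −0.07 and −0.32 at the 4 levels, where that of all kept probe sets was between −0.03 and 0.01. With 3 genes and 1 array a level this is a description.

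The pyruvate dehydrogenase complex commits pyruvate to oxidation. Its 3 measured subunits were highest at 30% CR at their brightest probe sets, where 22.6% of the kept probe sets were. At 20% CR 2 of the subunits were lowest, against 28.8% of the kept probe sets. *Dld*, the shared E3 subunit, had 366 in the control pool and 399, 407, 288 and 454 at 5, 10, 20 and 30% CR. The 20% CR pool was the lowest and the 30% CR pool the highest of the 5 (log2 ratios −0.35 and 0.31). *Pdhb*, the E1 beta subunit, had 786 in the control pool and 846, 793, 711 and 904, the extremes being at the same levels. *Pdha1*, the E1 alpha subunit, had 786 in the control pool and 792, 716, 773 and 842 at its brightest probe set. Its second kept probe set was lower at all levels (−0.35, −0.40, −0.14 and −0.21), so that the direction for *Pdha1* depends on the probe set. *Pdhx*, of the same complex but outside the set and named after its values were seen, had 173 in the control pool and 166, 158, 129 and 184, also lowest at 20 and highest at 30% CR. The means over the levels were −0.01 (*Pdha1*), 0.04 (*Pdhb*) and 0.06 (*Dld*).

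In the citrate cycle the mean log2 ratios of the 9 genes ran from −0.18 (*Idh3a*) to 0.14 (*Cs*), with a median of 0.00. *Cs*, citrate synthase, which joins acetyl-CoA and oxaloacetate, had 1132 in the control pool and 1401, 1088, 1275 and 1263 at 5, 10, 20 and 30% CR at its brightest probe set. Its 3 kept probe sets disagreed. The brightest had a mean log2 ratio of 0.14 and the weakest 0.10, while the other had −0.22, −0.30, −0.17 and −0.33 at the 4 levels (mean −0.25, unadjusted p = 0.0911 and adjusted p = 0.988 in limma).

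**Figure D2:**
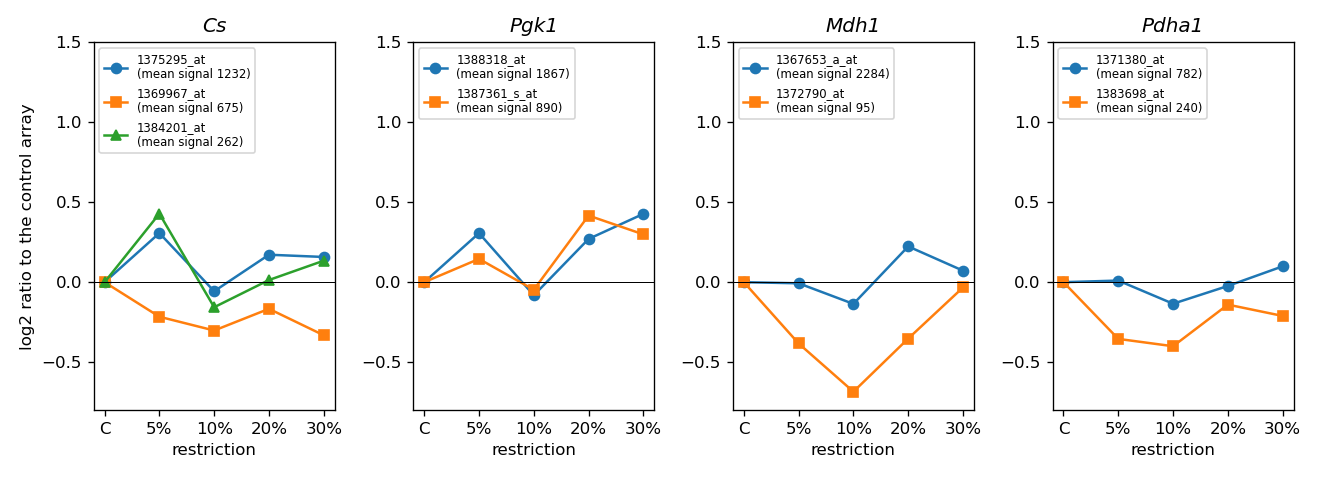
Log2 ratio to the control array for each kept probe set of 4 enzymes with more than 1, on the control array (C, 0 by definition) and at 5, 10, 20 and 30% CR. The 2 probe sets of *Pgk1* run together, while one of the 3 of *Cs* and the weaker ones of *Mdh1* and *Pdha1* lie below the brightest one of their gene.

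The isocitrate dehydrogenases differ in compartment and cofactor. *Idh1*, the cytosolic NADP-dependent form, had 2155 in the control pool and 2206, 2055, 2726 and 2366 at 5, 10, 20 and 30% CR. The 20% CR array was the highest (log2 ratio 0.34) and the other levels lay within 0.13 of the control. *Idh2*, the mitochondrial NADP-dependent form, had 1563 in the control pool and 1352, 1715, 1597 and 1551, with no common direction. *Idh3a*, the catalytic subunit of the NAD-dependent enzyme of the cycle, had 506 in the control pool and 424, 433, 502 and 429. It was lower by −0.25, −0.23 and −0.24 (log2) at 5, 10 and 30% CR and level with the control at 20% CR (−0.01, or 0.05 after median centring).

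The malate dehydrogenases, which shuttle reducing equivalents between cytosol (*Mdh1*) and mitochondrion (*Mdh2*), were both highest at 20% CR as deposited, at their brightest probe sets. *Mdh1* had 2228 in the control pool and 2218, 2028, 2602 and 2342 at 5, 10, 20 and 30% CR at its brightest probe set. A second kept probe set of *Mdh1* (71.4 to 115) was lower at all levels. *Mdh2* had 3650 in the control pool and 3422, 3472, 4256 and 3531. The log2 ratios at 20% CR, 0.22 for both genes, depended on the scaling. After quantile normalization that of *Mdh1* was 0.07, the same as at 30% CR, and that of *Mdh2* was 0.01. The flattest genes of the set were *Suclg1*, of succinyl-CoA ligase (1156 to 1215 over the 5 arrays, the highest 1.05 times the lowest), and *Ogdh*, the E1 subunit of the 2-oxoglutarate dehydrogenase complex (1122 to 1206, 1.07 times). *Aco1*, the cytosolic aconitase that doubles as an iron sensor, had 266 in the control pool and 295, 259, 283 and 316.

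Counted over the 29 genes, 4 were above the control at all 4 levels (*Hk1*, *Aldoa*, *Pgam1* and *Ldhb*), where 19% of the kept probe sets were, and 7 were below it at all levels (*Hk2*, *Pfkp*, *Pkm*, *Pgd*, *Tkt*, *Idh3a* and *Suclg1*), against 20.6%. All 4 ratios share the control array. A difference of at least 0.5 (log2) at all levels was found for *Hk1*, which was higher (0.769% of the kept probe sets), and for no member that was lower (0.34%). By array, 11 members had their highest signal at 20% CR, against 21.2% of the kept probe sets and 26.7% of the brightest 25%. After quantile normalization there were 4 such members, against 23.7% of the kept probe sets. After median centring there were 16, for which no share is given here. The control array was the highest in 7 members, against 20.7%, and the 30% CR array the lowest in 6, against 21.1%. The lowest signal was at 10% CR in 12 members, against 16.7% of the kept probe sets and 17.7% of the brightest 25%. After quantile normalization this held for 11 members, against 18.6% of the kept probe sets, and after median centring for 16. At 20% CR 3 members had their lowest signal, against 28.8%. After quantile normalization 6 members did, against 24.1% of the kept probe sets. The counts also depend on single pools and on the scaling. Without the 20% CR pool 15 genes were below the control at all remaining levels, against 27.6% of the kept probe sets and 30.4% of the brightest 25%. After quantile normalization 11 were below it at all levels, against 20.4% of the kept probe sets. Without the 10% CR pool 8 were above it, and after median centring 4 were below it, for which no share over all probe sets is given here.

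The pattern of *Eno1* returned in other genes of the set: below the control at 5, 10 and 30% CR, with the 20% CR array the highest of the CR arrays. It was noticed after the values were seen, and it is a description without a test. It was found in 14 of the 29 genes (*Gpi*, *Pfkp*, *Tpi1*, *Gapdh*, *Eno1*, *Pkm*, *Ldha*, *Pgd*, *Tkt*, *Taldo1*, *Idh3a*, *Ogdh*, *Suclg1* and *Mdh2*), where 12.7% of the kept probe sets and 16.1% of the brightest 25% showed it. After quantile normalization it was found in 9 of the genes against 14.7% of the kept probe sets, and after median centring in 13. Some of the 14 hardly left the control level, such as *Suclg1* and *Ogdh*. The lowest single ratios among them were those of *Eno1*, *Pgd* and *Tkt*.

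The 20% CR array is also the one with the highest summed epithelial markers (17117), though not with a higher *Cdx2* (log2 ratio −0.05). It had the highest beta-actin 3' to 5' ratio (3.18), though not the highest *Gapdh* ratio (1.27, below the 1.40 of the control array). Its 98th percentile of signal was the highest of the 5 arrays (1761 against 1625 to 1670 on the others), at the same trimmed mean (132). The median log2 ratio of the 14 genes of glycolysis and lactate formation was −0.15, −0.10, 0.07 and −0.16 at 5, 10, 20 and 30% CR, and the value at 20% CR turned to −0.05 after quantile normalization. Among single genes, those of *Gpi*, *Tpi1*, *Gapdh*, *Eno1*, *Ldha*, *Aldoa*, *Idh2* and *Ogdh* turned from above to below 0 at 20% CR with it, while that of *Taldo1* stayed positive (0.16). Whether these genes were above the control at 20% CR thus depends on the scaling. The part of the epithelial share and of RNA integrity in it was not tested. The medians at 5, 10 and 30% CR stayed below 0, with medians of −0.09, −0.14 and −0.15 after quantile normalization.

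**Figure D3:**
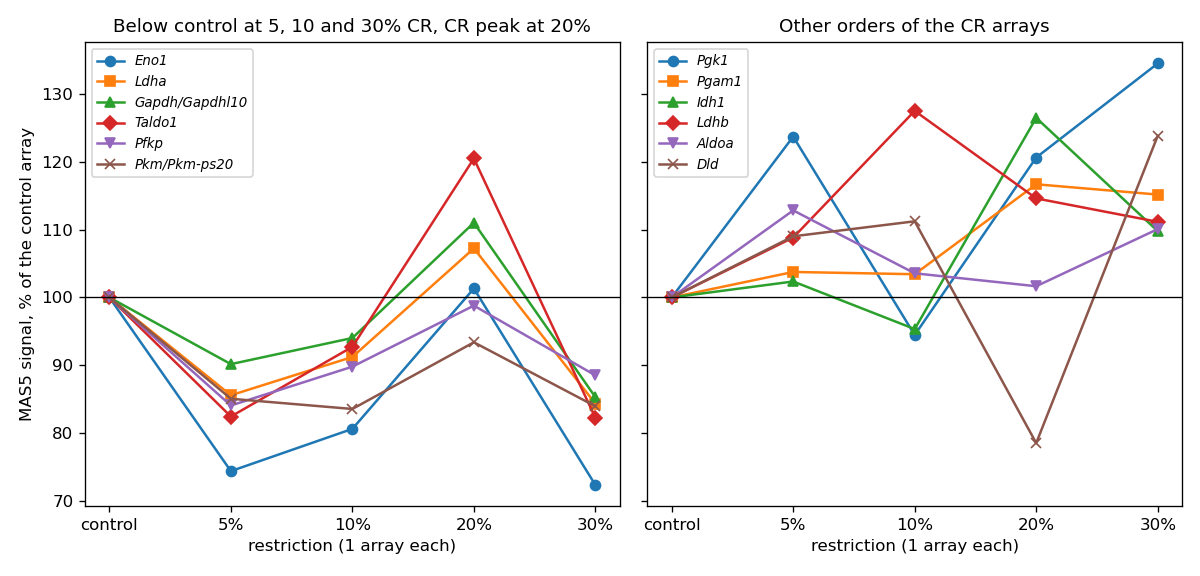
MAS5 signal as a percentage of the control array over the 5 arrays, 1 pool of 5 rats each. On the left, 6 genes that were below the control at 5, 10 and 30% CR and highest of the CR arrays at 20% CR, with *Eno1* between 72.4 and 101% of the control. On the right, 6 genes with other orders, among them *Pgk1*, highest at 30% CR, and *Dld*, lowest at 20% CR.

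**Figure D4:**
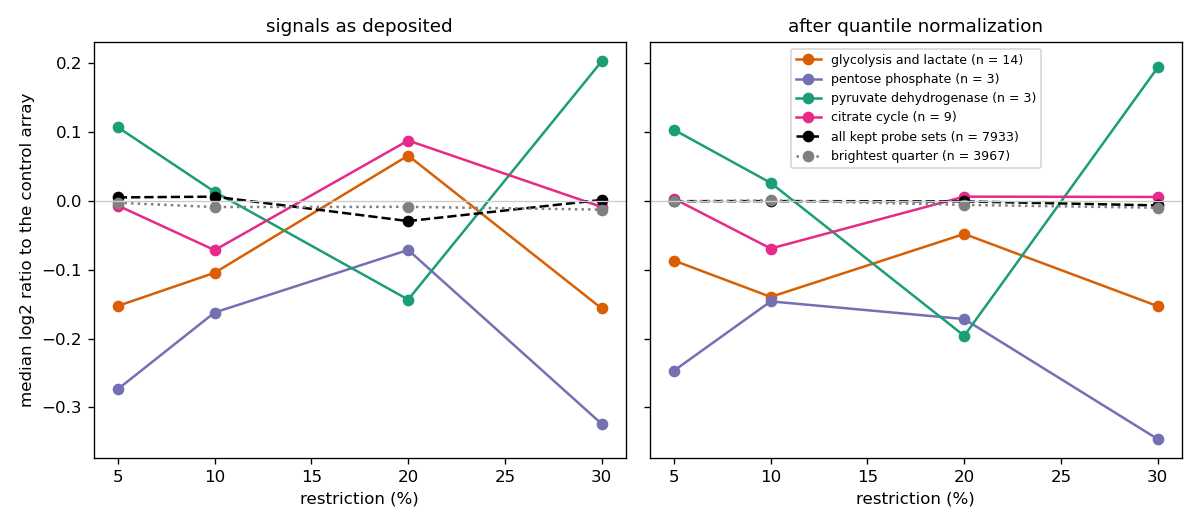
Median log2 ratio to the control array at each restriction percent for the 4 arms of the set, for all kept probe sets and for the brightest 25% of the array, with the signals as deposited (left) and after quantile normalization (right). The glycolysis median at 20% CR is above 0 on the left and below it on the right, and the pyruvate dehydrogenase median is the lowest of the 4 arms at 20% CR and the highest at 30% CR in both.

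The promoter windows of 3 genes with the *Eno1* pattern and of *Pgam1*, a neighbour in the pathway without it, are shown so that their sequence can be set beside the profiles. Many glycolytic genes are known targets of the hypoxia-inducible factors, whose response element has the core letters ACGTG or GCGTG, and *Ldha* and *Eno1* are textbook examples. The windows are from RefSeq on GRCr8 and run from 250 bases before to 50 bases after the annotated start, written in the direction of the gene. Capitals mark ACGTG and GCGTG on either strand, which on the opposite strand read as CACGT and CACGC in print. The letters CACGTG, the E-box, overlap ACGTG on both strands.
*Ldha* (chr1:106507842-106508141, + strand): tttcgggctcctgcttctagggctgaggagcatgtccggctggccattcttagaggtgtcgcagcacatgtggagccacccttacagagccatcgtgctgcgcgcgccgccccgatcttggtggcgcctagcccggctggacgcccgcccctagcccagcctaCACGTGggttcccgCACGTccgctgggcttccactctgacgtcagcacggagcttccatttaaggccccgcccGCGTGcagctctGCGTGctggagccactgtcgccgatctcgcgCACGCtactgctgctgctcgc
*Eno1* (chr5:166003111-166003410, + strand, 1 of its 2 windows): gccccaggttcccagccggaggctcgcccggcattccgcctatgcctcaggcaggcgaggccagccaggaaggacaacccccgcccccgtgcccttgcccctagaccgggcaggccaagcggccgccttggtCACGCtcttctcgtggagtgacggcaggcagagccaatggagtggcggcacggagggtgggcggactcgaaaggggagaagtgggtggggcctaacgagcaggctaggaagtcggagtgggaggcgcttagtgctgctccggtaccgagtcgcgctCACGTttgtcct
*Gapdh* (chr4:159652418-159652717, − strand): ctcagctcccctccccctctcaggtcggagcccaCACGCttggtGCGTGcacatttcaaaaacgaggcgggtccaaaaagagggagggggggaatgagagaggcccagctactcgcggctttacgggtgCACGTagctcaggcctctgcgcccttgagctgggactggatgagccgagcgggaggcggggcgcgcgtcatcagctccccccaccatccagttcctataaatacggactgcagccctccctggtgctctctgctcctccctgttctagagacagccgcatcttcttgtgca
*Pgam1* (chr1:250672902-250673201, + strand): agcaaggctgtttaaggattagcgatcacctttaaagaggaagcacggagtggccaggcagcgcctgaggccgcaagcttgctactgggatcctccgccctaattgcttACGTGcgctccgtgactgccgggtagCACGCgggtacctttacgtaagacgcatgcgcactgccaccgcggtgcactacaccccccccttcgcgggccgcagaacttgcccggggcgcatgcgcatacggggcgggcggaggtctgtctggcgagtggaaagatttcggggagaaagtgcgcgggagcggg

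The window of *Ldha* held 3 matches to ACGTG and 3 to GCGTG, 2 of the former lying in 1 E-box. *Eno1* had 1 of each, *Gapdh* 1 and 2, and *Pgam1* 1 of each. Of the 29 measured genes 27 have a window, and 17 of these held at least 1 match. Matches were found in 8 of 13 genes with the *Eno1* pattern and in 9 of 14 of the other measured genes, shares that are close to each other. By window, 20 of 33 (60.6%) of the set, *Dlat* and *Fh* included, held a match, against 41.6% of all 33469 windows of that length. The windows were not matched for base content, and some genes, such as *Aldoa* and *Eno1*, have more than 1. *Hif1a*, the oxygen-regulated subunit of the factor, had 195 in the control pool and 212, 210, 265 and 209 at 5, 10, 20 and 30% CR. It was not named by the rule used for the other pathway genes, and its part in these profiles was not tested.

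Other genes of the same pathways were read from fixed lists of 73 names, of which 61 had a probe set and 44 passed the filter, each gene being read by its brightest probe set. None of the 44 passed limma at an adjusted p of 0.05, in the comparison or in the trend. At an unadjusted p below 0.05 there were 3 in the comparison (*Acly*, *Gpd1* and *Pck1*, the last of which passed the filter only through its signals under CR) and 0 in the trend, against 4.76% and 3.09% of the kept probe sets. Of the 61 genes 23 had a positive mean log2 ratio and 38 a negative one, genes below the filter included. Among all kept probe sets 3894 of 7933 were positive.

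Among the isozymes and regulators of glycolysis, *Pklr*, the pyruvate kinase of liver and intestine, had 631 in the control pool and 484, 426, 586 and 429 at 5, 10, 20 and 30% CR. It was lower at all levels and least so at 20% CR, an order like that of *Pkm*, with a mean log2 ratio of −0.40 (SD 0.22, unadjusted p = 0.0559, adjusted p = 0.988 in limma). It was named after its values were seen. A second probe set of *Pklr* had −0.43 in the mean, with its smallest difference at 30% CR. The 18 measured genes of this list had a median of −0.07 in the mean of the levels.

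At the entry of pyruvate into the mitochondrion, *Mpc2*, a subunit of the pyruvate carrier, had 1175 in the control pool and 1312, 1326, 1373 and 1357 at 5, 10, 20 and 30% CR. All 4 CR pools were above the control and close to each other (mean log2 ratio 0.19, SD 0.03, adjusted p = 0.988 in limma). *Pdp2*, a phosphatase that activates pyruvate dehydrogenase, had 66.0 in the control pool and 56.3, 45.3, 42.3 and 46.7, and *Pdk4*, a kinase that inactivates it and is known to rise on fasting, had 27.4 and then 32.8, 51.0, 52.0 and 43.6. Both moved away from the control in all pools, in opposite directions, but *Pdk4* was below the filter and was not tested, and the adjusted p of *Pdp2* was 0.988. *Pc*, pyruvate carboxylase, had 36.5 in the control pool and 26.5 to 31.7 in the CR pools, below the filter as well.

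In the pentose phosphate list, *Rpe*, which interconverts pentose phosphates, had 117 in the control pool and 147, 149, 94.8 and 220 at 5, 10, 20 and 30% CR, with the 20% CR pool the lowest and that of 30% CR the highest. *Prps2* and *Prps1*, which make phosphoribosyl pyrophosphate from ribose 5-phosphate, had mean log2 ratios of 0.18 and −0.08, with 0.46 and −0.27 at other probe sets of *Prps2*, below the filter, and 0.32 at another of *Prps1*. *H6pd*, of the endoplasmic reticulum, had −0.19 on signals below the filter (23.4 to 38.7). The means of the 6 genes of this list were positive in 3 and negative in 3, while *Pgd*, *Tkt* and *Taldo1* were all negative.

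Around the citrate cycle, both enzymes of the glycerol 3-phosphate shuttle were read by more than 1 probe set, and neither passed the test. *Gpd1*, the cytosolic enzyme, had 1002 in the control pool and 806, 713, 897 and 696 at 5, 10, 20 and 30% CR (mean log2 ratio −0.37, unadjusted p = 0.0464, adjusted p = 0.988 in limma). *Gpd2*, the mitochondrial enzyme, had 281 in the control pool and 217, 218, 271 and 170. Both were lower at all 4 levels at these probe sets and least so at 20% CR. A second probe set of *Gpd1* had a mean log2 ratio of 0.05, and the second of *Gpd2* had −0.86 (unadjusted p = 0.00400, adjusted p = 0.756). *Acly*, which makes cytosolic acetyl-CoA from citrate, had 342 in the control pool and 282, 270, 259 and 268, lower at every level (mean log2 ratio −0.34, unadjusted p = 0.0416). It was named as 1 of the 3 genes at an unadjusted p below 0.05.

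The succinate dehydrogenase subunits *Sdha*, *Sdhb*, *Sdhc* and *Sdhd* had mean log2 ratios of 0.03, −0.06, 0.23 and −0.01 and were named after their values were seen. Thus the components of this complex did not all take the same direction. *Dlst*, the E2 subunit of the 2-oxoglutarate dehydrogenase complex, had −0.26, where *Ogdh*, its E1 subunit, had −0.05. *Me3*, a mitochondrial malic enzyme (22.5 to 41.3), and *Ireb2*, the other iron regulatory protein beside *Aco1* (15.2 to 45.9), lay below the filter on the mean.

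*Pck1*, the key enzyme of gluconeogenesis, had a mean log2 ratio of 1.40. Its signals were 27.1 in the control pool and 75.8, 70.4, 76.0 and 64.9 at 5, 10, 20 and 30% CR, and its adjusted p was 0.223 in limma. Like *Hk1*, it passed the filter only through its signals under CR, so that it had to be higher there. *Fbp1*, *Fbp2* and *Pck2*, of the same pathway, had mean log2 ratios of −0.13, −0.05 and −0.24, the last with −0.31 at a second probe set, below the filter.

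**Figure D5:**
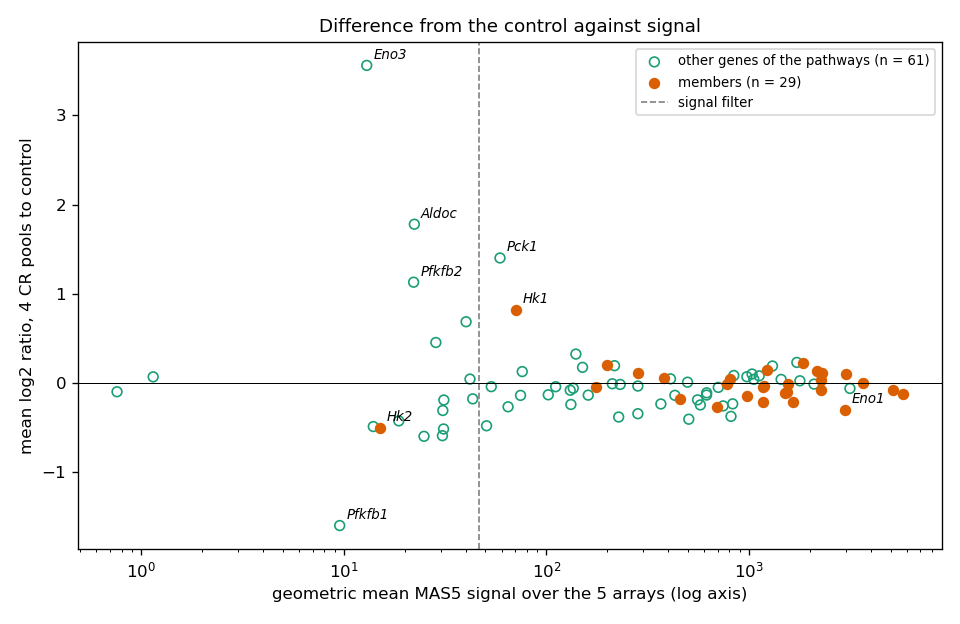
Log2 ratio to the control pool, averaged over the 4 CR pools, against the geometric mean signal over the 5 arrays (log axis), for the 29 members (filled) and 61 other genes of the pathways (open), 1 probe set per gene. The vertical dashed line is the signal filter (46.5), and all ratios beyond 1 in size except that of *Pck1* lie to its left, where signals are weak.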

How the data were processed

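Small intestine RNA of 5 groups of rats was pooled by group and read on 1 Affymetrix array per group. The authors deposited intensity values (MAS5 signals on a linear scale), equal in their mean without the lowest and highest 2%. The sources used here do not give the scaling target. MAS5 takes a mismatch estimate off each probe, which makes weak signals unstable, and scaling removes differences in total RNA. The number of arrays limits the precision.

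Signals below 0.1 were raised to 0.1, and log2 was taken. The 57 array controls entered no test. By the platform annotation, 12783 of 15866 gene probe sets carried 1 gene name, 312 several and 2771 no name, and 0 symbols needed updating. A probe set was kept if its mean log2 signal reached the median over all of them (5.54). A gene was represented by its probe set of the highest mean, one with a single name being preferred. Tests were run in R 4.3.3 with limma 3.58.1 (lmFit, then eBayes with trend): CR pools against control, and a line over percent restriction. Both were two-sided and adjusted after Benjamini-Hochberg over 7933 probe sets, with a threshold of 0.05. The code was tested on simulated data. Since pools are the units, p-values rest on the spread between pools and say nothing of single rats. The eBayes step draws the spread of each probe set toward that of probe sets of like signal. In the comparison with the control, a difference between CR levels counts as part of the spread between pools. Counts by size used a log2 ratio of 0.5.

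The members and lists were chosen with earlier results of these data known. Values on every array were given for the 3 members with the largest mean ratio in each arm, those past 0.5 at a level, isozyme pairs, *Gapdh*, the 3 highest and 3 lowest slopes, and for further members where the text describes them. Of the other pathway genes, the 4 largest mean ratios in each list and *Pck1* were named. Summed signals were taken for marker lists of epithelium, crypt, goblet, smooth muscle, macrophage, lymphocyte, blood, pancreas and adipose tissue. As alternatives, signals were quantile normalized, centred on the median or raised by 13 (the signal at quantile 0.25), the filter was dropped or set at quantile 0.75, eBayes was run without trend, the level was replaced by its rank, a size of 1 was used, probe sets of a gene were averaged, and each pool was left out in turn.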

Additional observations from a re-analysis of the deposited data

How the results depend on the processing

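No paired analysis was possible because each pool came from other rats and had 1 diet. In limma 0 members passed under any alternative run. Without the 30% CR pool 3 probe sets, none of them a member, passed as higher than the control, so that the count over all probe sets ranged from 0 to 3 when a pool was left out. The number of members above the control at all levels ranged from 4 to 8 when a CR pool was left out, and the number below it from 7 to 15. The 15 were found without the 20% CR pool, where 27.6% of the kept probe sets were below the control at all remaining levels. The number below it was 11 after quantile normalization, against 20.4% of the kept probe sets, and 4 after median centring. The number above it was 2 after median centring. The members past 0.5 in size were 1, 1, 2 and 2 at 5, 10, 20 and 30% CR. With an added constant there were 0 at 20% CR and 1 at 30% CR, with the stricter filter 0 at each level, since *Hk1* and *Hk2* were not among the probe sets left, and with a size of 1 there were 0 at 5, 20 and 30% CR. Of the other pathway genes 23 had a positive mean ratio, and 13 among those that passed the stricter filter. The medians of the arms in the mean of the levels moved by less than their spread over the levels in all alternatives run. Means near 0 turned when a pool was left out. That of *Pdha1* ranged from −0.049 to 0.028, turning without 10% CR. That of *Pdhb* ranged from −0.0080 to 0.11 and that of *Dld* from −0.024 to 0.20, both turning without 30% CR. That of *Idh2* ranged from −0.063 to 0.051, turning without 5% CR. Those of *Mdh1* (−0.024 to 0.096) and *Mdh2* (−0.071 to 0.034) turned without 20% CR, and that of *Mdh2* was −0.031 after quantile normalization. The slope of *Tkt* ranged from −0.098 to 0.00087, turning without 30% CR, that of *Eno1* from −0.11 to 0.065, turning without 30% CR and, at 0.011, without the control pool, and that of *Hk1* from −0.12 without the control pool to 0.21. Apart from fewer pools or probe sets, the cause was not tested. Weak signals limit *Hk1*, *Hk2* and the isozymes below the filter.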

Other observations

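Some isozymes of these pathways that are typical of other tissues were read below the signal filter and were not tested. *Eno3*, the enolase of muscle, had a signal of 1.8 in the control pool and 22.0, 28.4, 17.3 and 18.8 at 5, 10, 20 and 30% CR. *Aldoc*, the aldolase of brain, had 8.3 in the control pool and 30.8, 37.7, 26.1 and 21.8. In both the control array was the lowest, and the CR pools were highest at 10% CR, the order also seen for *Hk1*. *Pfkfb2*, of the enzyme that sets the phosphofructokinase activator fructose 2,6-bisphosphate, had 11.8 in the control pool and 19.4 to 31.8 in the CR pools at its brightest probe set, and its other probe sets did not follow (mean log2 ratios −0.36, −0.58 and 0.50). *Pfkfb1* had 23.1 in the control pool and 1.2 to 24.0 in the CR pools, without a common direction.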
